A study of Gossypium hirsutum with 6 samples.

Results

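The mRNA of stem apexes was compared between a dwarf and a tall-culm mutant of upland cotton (Gossypium hirsutum), the 2 lines that stand at opposite ends of plant height in this study. A transcript entered the comparison when the mean of its RPKM (a read number divided by transcript length and library size) over both mutants was at least 5, which 31507 of 156846 assembled transcripts reached. The ratio given for each is the log2 of the A1 value over the A3 value with 0.1 added to both, so that a positive ratio means a higher level in the dwarf. The dwarf mutant Ari1327 (A1) and the tall-culm mutant Ari3697 (A3) both came from the wild type Ari971 (A9) by gamma-ray irradiation. Seedlings of all 3 lines were raised in a greenhouse, and stem apexes were taken with the fifth true leaf unfolded. Each line had a single mRNA library, so no difference below has a replicate check and no test between lines was possible. A difference of at least 2-fold (a log2 ratio of 1 or more in size) is called here by its size alone. The labels give each library a genotype, yet they also describe equal amounts of RNA of the lines as combined before the libraries were made, and the genotype was followed here. The transcripts carry assembly names without gene names, so the apex could not be checked against marker genes.

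The stem apex holds the shoot meristem, young leaf primordia and the youngest internodes, whose later elongation sets the height of the plant. Elongation depends on cell division in the meristem and on cell expansion below it, for which the wall is loosened and rebuilt, and both are steered by hormones such as auxin, gibberellin, brassinosteroid and abscisic acid. Plant miRNAs pair with almost their whole length to a target transcript and lead to its cleavage or to less translation, and several conserved ones act on regulators of the meristem. In a bulk apex, fewer cells of a type and less RNA per cell cannot be told apart.

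Functions are known here only for transcripts that the study listed as predicted miRNA targets. Of 512 such targets, 198 were among the 31507 transcripts, and 95 of these had a named function. The sites below belong to the target with a function and the 2-fold difference for which a site could be read, to the target without a function whose level differed most among those with a site, and to targets of conserved miRNAs listed as cleaved. Each is written 5′ to 3′, with bases 2 to 8 of the miRNA (the seed) in capitals, and the bases opposite them in capitals in the target site.
ghr-m3638-5p: uUCCAUCUcuugcacacugg
its site in comp16032_c0_seq1, large subunit ribosomal protein L8e: ccagguugcaggAGGUGGAa
ghr-m4252-5p: aGGACUCUcaauuguagaua
its site in comp35335_c1_seq2, no function given: gaucuucgauugAGAGUUCu
ath-miR168a: tCGCTTGGtgcaggtcgggaa
its site in comp46753_c1_seq2, eukaryotic translation initiation factor 2C: ttcccgagctgcaCCAAGCAa
ath-miR403: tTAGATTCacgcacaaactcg
its site in comp45738_c0_seq1, eukaryotic translation initiation factor 2C: ggggtttgtgcgtGAATCTAa
ath-miR393a: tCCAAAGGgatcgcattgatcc
its site in comp45893_c0_seq5, auxin mediated signaling by its ontology term: gaaacaatgcgatcCCTTTGGa
gma-miR156k: tTGACAGAagagagtgagcac
its site in comp26942_c0_seq2, no function given: gtgctctctctctTCTGTCAt
Each of the 6 sites left 2 or fewer bases unpaired when G with U was counted as a pair.

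Among transcripts with a mean of at least 5 RPKM, the apexes of the mutants differed little from each other. The log2 ratio of A1 over A3 had a median of -0.01 over the 31507 transcripts, with quartiles at -0.18 and 0.18, and 86.5% of the transcripts lay within 0.5 of 0. A total of 620 transcripts (1.97%) were at least 2-fold higher in A1 and 261 (0.828%) at least 2-fold lower, together 2.80%. Over the same transcripts, 2011 (6.38%) differed at least 2-fold between A1 and A9 and 1372 (4.35%) between A3 and A9, comparisons that share the A9 library. The minimum was set on A1 and A3 alone, which lets in transcripts low in A9 and leaves out those high only in A9. The shares against A9 are therefore not on equal terms with the 2.80%. Over all transcripts, A1 had a summed RPKM of 805778, A3 of 798674 and A9 of 800227, of which the selected ones held 76.0%, 75.7% and 75.4%. Scaling A1 so that the median ratio became 0, a factor of 0.01 on the log2 scale, left 631 transcripts higher and 259 lower.

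Among the differing transcripts, 70.4% were higher in the dwarf, but this excess depended on the level and on the size of the difference. From 5 to 10 RPKM, 380 transcripts were higher in A1 and 208 lower, out of 16353. From 10 to 20 RPKM the numbers were 136 and 38 out of 8683, and from 20 to 50 RPKM they were 83 and 8 out of 4537. The share of lower transcripts was thus smaller at higher levels, while that of higher ones stayed between 1.35% and 2.32% up to 100 RPKM. At 100 RPKM or more 4 were higher and 5 lower out of 676, but 4 of those 5 belonged to a single component, comp26679_c0. At 4-fold or more the excess was nearly absent among single transcripts, where 56 (0.178%) were higher and 50 (0.159%) lower in A1, together 0.336%. It was still present when RPKM was summed per component, with 45 components higher and 29 lower. Of these 60.8% were higher, against 65.3% at 2-fold.

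**Figure D1:**
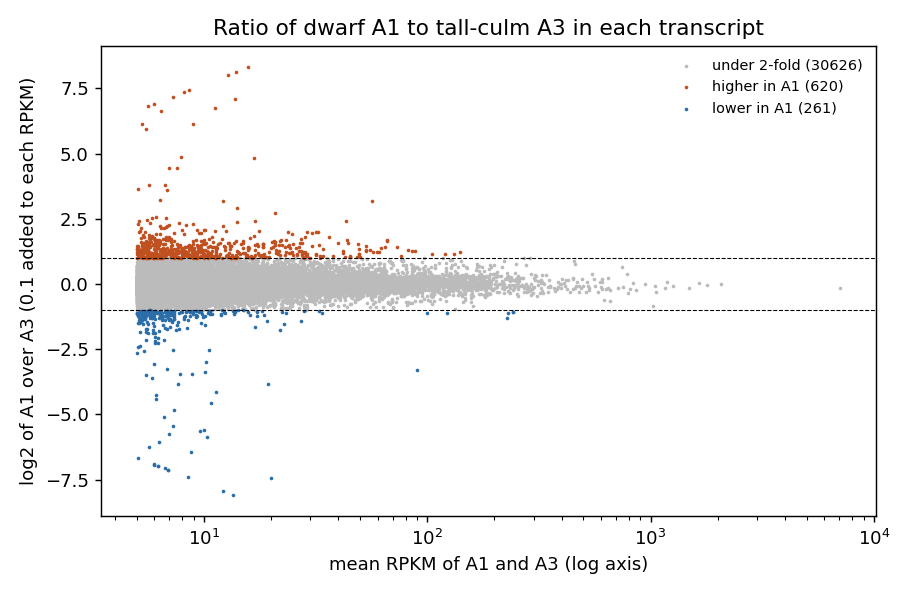
Each point is 1 of 31507 transcripts, with the mean RPKM of A1 and A3 on a log axis and the log2 ratio of A1 over A3 (0.1 added to each value) on the other axis. Dashed lines mark 2-fold; 620 transcripts lie on or above the upper line and 261 on or below the lower one, and the widest ratios belong to low levels.

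**Figure D2:**
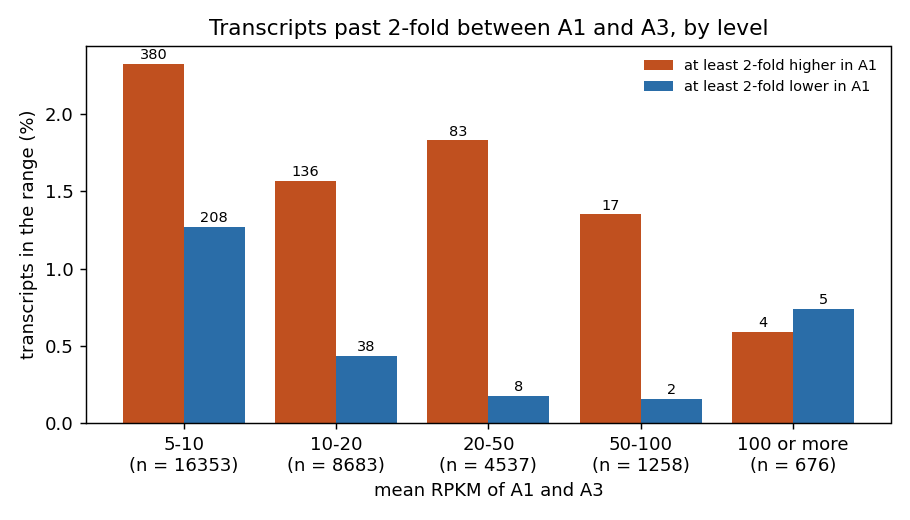
Bars give the percent of transcripts in each range of mean RPKM that were at least 2-fold higher (left bar) or lower (right bar) in A1 than in A3, with their number above. From 20 to 50 RPKM 83 were higher and 8 lower, and at 100 RPKM or more 4 were higher and 5 lower.

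The minimum itself let transcripts in through the line where they were high. Of the 620 higher transcripts, 289 had at least 5 RPKM in both mutants, as had 62 of the 261 lower ones. These were 1.02% and 0.218% of all that had such levels in both. The minimum also has close neighbours on either side. Just at it were comp18127_c0_seq3 with 4.50 RPKM in A1 and 5.50 in A3, comp22460_c0_seq1 with 4.03 and 5.97, and comp24695_c0_seq1 with 4.77 and 5.23. Just below it, at a mean of 4.995 RPKM, were comp46538_c0_seq4, comp46578_c0_seq12 and comp46816_c0_seq7, with ratios of 0.07, 0.16 and -0.22.

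The wild type divided the differing transcripts into unlike sets. Of the 620 transcripts higher in A1, A9 was below both mutants for 426 (68.7%), between them for 175 (28.2%) and above both for 19 (3.06%). Of the 261 lower in A1, A9 was between the mutants for 166 (63.6%), above both for 51 (19.5%) and below both for 44 (16.9%). Over all 31507 transcripts A9 was below both for 40.1%, between for 23.6% and above both for 36.3%, where a value equal to that of a mutant counts as between. A9 had no part in the minimum, so transcripts high only in A9 are missing from all these counts. The most frequent order was thus A1 above A3 above A9 for the higher transcripts, and A3 above A9 above A1 for the lower ones. Among the 56 transcripts at least 4-fold higher in A1 this no longer held, since A9 was between the mutants for 30 and below both for 26. Where A9 lay between, it was nearer to A3 on the log2 scale in 94 of the 175 higher and in 111 of the 166 lower transcripts. Over all transcripts with A9 between, this was so in 4147 of 7440.

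**Figure D3:**
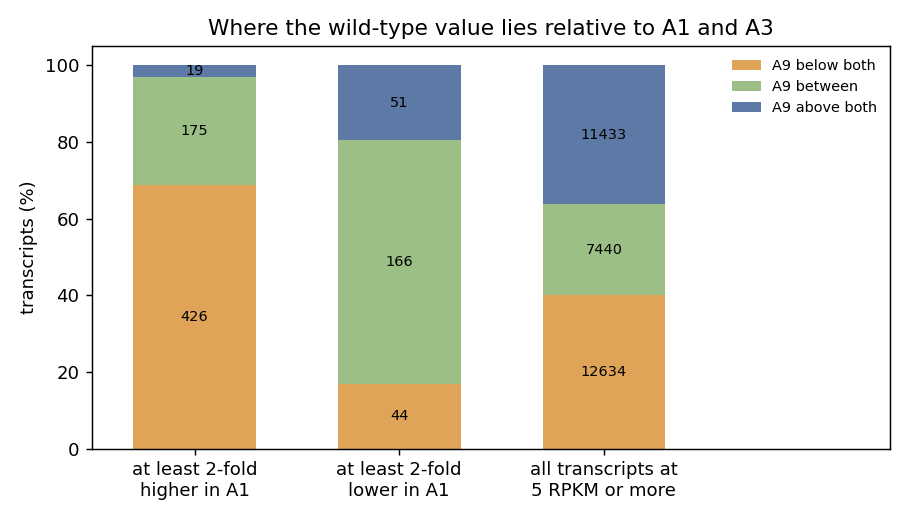
Stacked bars give, for transcripts at least 2-fold higher in A1 than in A3, at least 2-fold lower, and all 31507 transcripts, the percent whose A9 value was below both mutants, between them or above both, with the number in each block. A9 was below both for 426 of the 620 higher transcripts and between for 166 of the 261 lower ones.

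The 426 transcripts in the order A1, A3, A9 came from 249 components, a component being a group of transcripts that the assembler could not separate and that share the first part of their name. Their median levels were 12.8 RPKM in A1, 5.11 in A3 against 2.32 in A9. Their ratio of A1 over A3, for which they were chosen, had a median of 1.29 with quartiles at 1.11 and 1.51. Their ratio of A3 over A9, positive because A9 below both was also a condition of the choice, had a median of 1.28. Its quartiles were 0.65 and 2.18. At least 2-fold higher in A3 than in A9 as well were 254 of the 426, beside 1107 of all 12634 transcripts with A9 below both. Of the 426, 4 were listed at 0 in A9, and 1 was a listed miRNA target, as were 0.628% of all 31507 transcripts. Among the higher transcripts, the share with A9 below both grew with level. It was 63.2% of 380 from 5 to 10 RPKM and 71.3% of 136 from 10 to 20. From 20 to 50 it was 84.3% of 83, and from 50 to 100 it was 88.2% of only 17. The share over all 31507 transcripts, 40.1%, was not split by level, so whether this rise is particular to the higher transcripts is not known.

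The transcripts with a mean of at least 50 RPKM were a set picked out after the values were seen. There were 1258 from 50 to 100 RPKM and 676 at 100 or more. Of these, 1.51% and 1.33% differed at least 2-fold in either direction, less than the 2.80% of all 31507 transcripts. In this set, 21 transcripts of 19 components were at least 2-fold higher in A1. They lay between 74.7 and 197 RPKM in A1, with a median of 101, and between 11.2 and 83.9 RPKM in A3, with a median of 35.8. In A9 they lay between 1.54 and 58.1 RPKM with a median of 9.55. In 19 of the 21, A9 was the lowest line, and in 18 the ratio of A1 over A3 was between 1 and 1.5. None of them carries a function in the sources used here.

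The transcript with the widest span was comp36020_c0_seq1, at 101 RPKM in A1, 31.7 in A3 and 1.54 in A9, with a ratio of 1.66 between the mutants. The most abundant was comp31602_c0_seq1, at 197 RPKM in A1, 83.9 in A3 against 7.94 in A9. The other transcript of its component past the same level, comp31602_c0_seq3, had 85.02, 36.5 and 8.87 RPKM. Both thus had nearly the same ratio, 1.23 and 1.22, although they differed in level. The same held for comp31318_c0_seq1 and comp31318_c0_seq2, with 80.4 and 82.9 RPKM in A1, 33.9 and 35.8 in A3, and 5.17 and 5.51 in A9. At higher wild-type levels, comp34437_c0_seq1 had 182 RPKM in A1, 82.1 in A3 against 25.3 in A9, and comp28825_c1_seq1 had 165, 74.4 and 27.9 RPKM.

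In 3 of the 21, A3 was near the wild type. The ratio was widest for comp28954_c0_seq1, at 102 RPKM in A1, 11.2 in A3 and 14.3 in A9 (ratio 3.18). The transcript comp33527_c0_seq1 had 78.6 RPKM in A1 against 28.3 in A3 and 28.0 in A9, and comp26072_c0_seq1 had 125 in A1 against 52.1 in A3 and 58.1 in A9. In these 3 the dwarf stood alone, with ratios of A3 over A9 of -0.35, 0.01 and -0.16.

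Of the transcripts with a mean of at least 50 RPKM, 7 of 4 components were at least 2-fold lower in A1. The widest difference was that of comp47480_c0_seq1, at 16.6 RPKM in A1, 164 in A3 and 135 in A9 (ratio -3.30). The 4 transcripts of comp26679_c0 had 131 to 156 RPKM in A1, 316 to 330 in A3 and 294 to 328 in A9, with ratios from -1.30 to -1.08. In all 5 of these transcripts A3 and A9 were close and the dwarf was low. The other 2 were high in the tall-culm mutant instead. Here comp31518_c0_seq1 had 77.2 RPKM in A1, 169 in A3 against 79.6 in A9, and comp34704_c0_seq1 had 62.5, 137 and 44.8 RPKM.

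**Figure D4:**
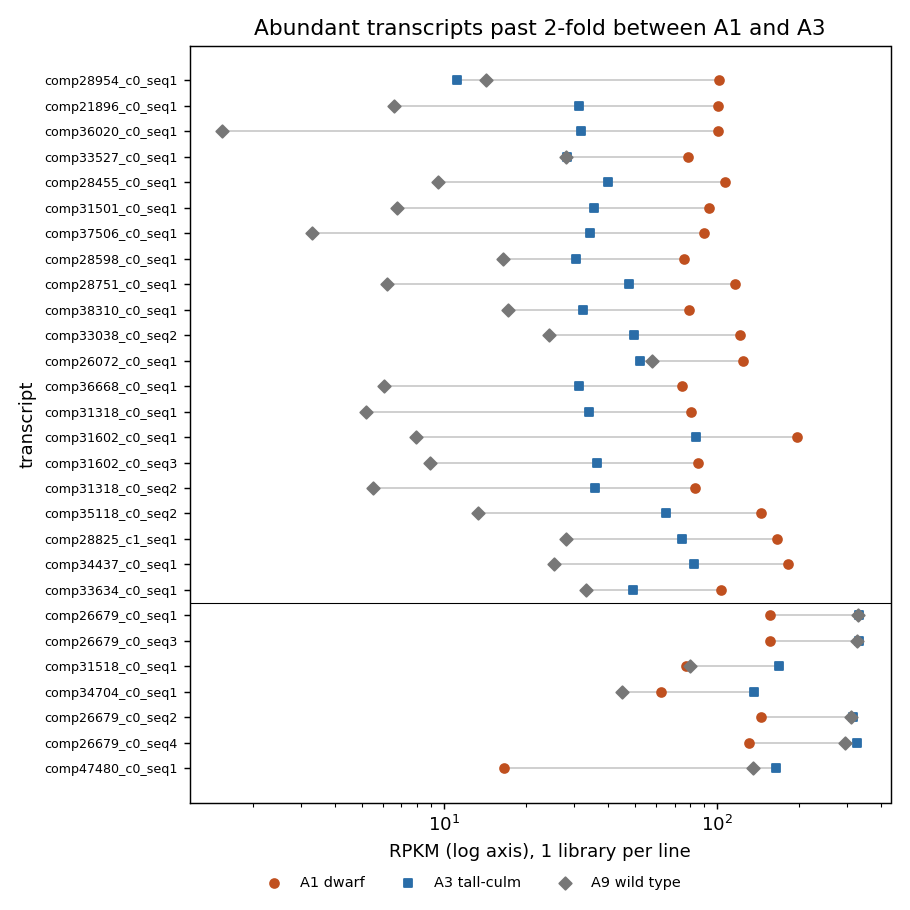
RPKM on a log axis of the 28 transcripts with a mean of at least 50 RPKM in A1 and A3 and at least 2-fold between them, 1 point per line (A1 circle, A3 square, A9 diamond; 1 library each, no error). Above the black line are the 21 higher in A1, ordered by ratio, of which 19 have A9 lowest, and below it the 7 lower in A1.

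Most of the widest ratios belonged to transcripts listed at 0 in one of the mutants, for which the size of the ratio is set by the 0.1 that was added and no fold is given. There were 8 at 0 in A3, with 11.3 to 31.7 RPKM in A1, and 11 at 0 in A1, with 10.1 to 27.1 RPKM in A3. The wild type had at least 1 RPKM in 6 of the 8 and in 9 of the 11. Most transcripts listed at 0 in a mutant were therefore present in the wild type. A value of 0 can also arise where reads are assigned to another transcript of the same component.

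Among those at 0 in A3, comp21884_c0_seq2 had 31.7 RPKM in A1 and 13.7 in A9, comp18167_c0_seq1 had 16.3 and 11.4, and comp59683_c0_seq1 had 14.5 and 5.50. Both transcripts of comp10028_c0 were at 0 in A3, with 25.7 and 27.8 RPKM in A1 and 11.1 and 10.4 in A9. The transcript comp20470_c0_seq2 had 11.3 RPKM in A1 and 9.39 in A9. All of these were expressed in the wild type. In contrast, comp67732_c0_seq1 and comp69892_c0_seq1 had 17.1 and 11.9 RPKM in A1 and were at 0 in both A3 and A9. Next to them, just above 0 in A3, came comp10744_c0_seq1 with 27.6 RPKM in A1, 0.10 in A3 against 0.25 in A9, and comp39750_c0_seq24 with 22.4, 0.11 and 12.1 RPKM. The component of comp39750_c0_seq24 differed little in its sum, with a ratio of 0.22.

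Among those at 0 in A1, comp15312_c0_seq1 had 27.1 RPKM in A3 and 17.3 in A9, and comp26016_c0_seq3 had 12.0 and 20.1. All 3 transcripts of comp22729_c0 were at 0 in A1, with 13.3, 17.0 and 13.8 RPKM in A3 and 10.9, 14.6 and 12.0 in A9. In comp44147_c0, comp44147_c0_seq1, comp44147_c0_seq5 and comp44147_c0_seq7 were at 0 in A1, with 13.8, 11.9 and 12.4 RPKM in A3 and 13.3, 11.2 and 12.5 in A9. In these A3 and A9 differed by less than 2-fold. Only the tall-culm mutant held comp19405_c0_seq2 and comp45271_c0_seq8, at 24.4 and 12.5 RPKM, with 0 in both A1 and A9. The sum of comp45271_c0 differed less, at 42.0 RPKM in A1 and 67.7 in A3 against 45.6 in A9, a ratio of -0.69 that was not past 2-fold. The transcript comp44879_c1_seq25 had 10.1 RPKM in A3 and 1.22 in A9, and comp42267_c0_seq1, at 0 in A9 only, had 0.13 RPKM in A1 and 39.8 in A3, while the sum of its component was not past 2-fold either (ratio -0.63).

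Transcripts of a component can share reads, so the RPKM was also summed over each component. Of 21611 components with a mean sum of at least 5 RPKM, 393 (1.82%) were at least 2-fold higher in A1 and 209 (0.967%) lower, together 2.79%. The median ratio of the sums was -0.01, with quartiles at -0.19 and 0.18. The most frequent orders were those of single transcripts. Among the 393 higher components A9 was below both mutants in 227 and between them in 147, and among the 209 lower ones it was between in 142. The position of A9 over all 21611 components was not counted, so these numbers have no background beside them.

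Of the 881 differing transcripts, 337 were alone in their component and 544 shared it with others. Among the 544, the sum passed 2-fold in the same direction for 306, stayed below 2-fold for 231 and had the opposite sign for 7. The sum passed for 249 of 409 higher transcripts (60.9%) and for 57 of 135 lower ones (42.2%). A difference in a single transcript was therefore often not one of its component. In 2 components, transcripts passed 2-fold in both directions. In comp36860_c0, comp36860_c0_seq5 had 15.0 RPKM in A1, 2.93 in A3 and 3.32 in A9 while comp36860_c0_seq12 had 3.42, 7.51 and 7.63, and the sums were 73.6, 87.8 and 87.8 RPKM. In comp44879_c1, comp44879_c1_seq2 had 7.01, 3.25 and 5.08 RPKM beside the transcript at 0 in A1 given above, and the sums were 140, 162 and 157 RPKM.

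Sums also brought out 117 of the 602 differing components that had no transcript with a mean of A1 and A3 of at least 5 RPKM on its own. The clearest was comp30042_c0, whose 12 transcripts summed to 38.2 RPKM in A1, 0.55 in A3 and 0.25 in A9. Each of the 12 had between 2.23 and 3.80 RPKM in A1 and at most 0.09 in A3, so all 12 differed in the same direction. The reverse was seen in comp27763_c1, whose 4 transcripts summed to 0.05 RPKM in A1, 29.9 in A3 and 12.2 in A9, with 7.13 to 7.81 RPKM each in A3. How shared reads were counted is not known, so such sums may hold the same reads more than once.

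Whole components of more than 1 transcript were listed at 0 in a mutant as well. At 0 in A3 were comp10028_c0 with 53.5 RPKM in A1 and 21.5 in A9, comp20470_c0 with 20.7 and 17.6, comp25862_c0 with 15.8 and 24.6, and comp23043_c0 with 16.1 RPKM in A1 and 0 in A9. At 0 in A1 were comp22729_c0 with 44.1 RPKM in A3 and 37.5 in A9, comp15920_c0 with 10.7 and 0, and comp8222_c0 with 10.02 and 0.28. Next to these, comp13242_c0 had 0.05 RPKM in A1, 11.2 in A3 and 8.40 in A9. With the components of 1 transcript, 8 components were at 0 in A3 and 3 in A1.

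The most abundant transcripts differed little between the mutants. The highest, comp31154_c0_seq1, had 6760 RPKM in A1, 7419 in A3 and 4186 in A9. It was followed by comp21547_c0_seq1 with 2062, 2054 and 1535 RPKM, comp36788_c0_seq2 with 1787, 1811 and 3230, and comp15241_c0_seq1 with 1672, 1636 and 2972. In these 4, the mutants were closer to each other than either was to the wild type. The other 6 of the 10 most abundant were comp28956_c0_seq1, comp33288_c0_seq1, comp41868_c1_seq1, comp15411_c0_seq1, comp33540_c0_seq1 and comp36788_c0_seq1, with ratios of A1 over A3 of -0.14, -0.06, 0.10, -0.14, -0.32 and -0.07.

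The listed miRNA targets were no exception to the likeness of the mutants. Of the 198 targets, 2 were at least 2-fold higher in A1 and 2 lower, which is 2.02% against 2.80% of all 31507 transcripts. Their median ratio was -0.03, with quartiles at -0.21 and 0.12, and 93.4% lay within 0.5 of 0. The share past 2-fold was thus near that of all transcripts.

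Of the 4, the 2 with a function were lower in A1. Subunit 4 of TFIIH, a general transcription factor that also takes part in DNA repair, had 4.22 RPKM in A1, 9.42 in A3 and 5.56 in A9 (comp27950_c0_seq1, ratio -1.14). Ribosomal protein L8e, a part of the large ribosomal subunit, had 5.04 RPKM in A1, 10.7 in A3 and 11.5 in A9 (comp16032_c0_seq1, ratio -1.07). The wild type was near the dwarf for TFIIH and near the tall-culm mutant for L8e. With 1 added to every RPKM in place of 0.1, both were just short of 2-fold, at -0.997 and -0.953. The 2 targets without a function that were higher in A1 were comp21217_c0_seq1, predicted for miR396, with 14.0 RPKM in A1, 6.38 in A3 against 5.36 in A9, and comp31806_c0_seq2, predicted for miR159, with 7.18, 3.39 and 4.52.

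For 100 of the 198 targets a length was listed, from which whole multiples that stand for reads or read pairs could be inferred. L8e rested on 15 multiples in A1 and 30 in A3, with an exact (Clopper-Pearson) 95% interval of the log2 ratio from -2.04 to -0.10. TFIIH subunit 4 rested on 28 and 61, with an interval from -1.86 to -0.49. The deepest of the wide differences was comp35335_c1_seq2, whose ratio of 0.85 (40.2 RPKM in A1, 22.2 in A3 and 21.4 in A9) rested on 826 and 446 multiples with an interval from 0.69 to 1.02. The other transcripts of its component moved less, since the ratio of the sums was 0.32. The median interval reached 0.23 to either side, and 0 of the 100 intervals lay wholly past 2-fold. These intervals cover counting error only, not the variation between plants. They also take each multiple as independent, and would be too narrow if multiples are single reads of pairs.

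The function lists below were drawn by words in the function and ontology entries. A transcript can be on several lists, and some members have another main role, such as cyclin A among the protein kinases. Genes of the cell wall, which surrounds the expanding cell, had 5 of 7 listed transcripts measured, and 0 passed 2-fold. The median ratio was -0.05, against -0.01 for all transcripts, and it was -0.23 over 6 transcripts at a minimum of 1 RPKM. Cellulose synthase A, which makes the cellulose of the wall, had 15.5 RPKM in A1, 25.2 in A3 and 15.6 in A9 (comp43043_c0_seq2, ratio -0.70), so that the tall-culm mutant stood apart. Of the pectate lyases, which cut the pectin of the wall, comp31622_c0_seq1 had 4.55 RPKM in A1, 6.78 in A3 and 4.07 in A9, whereas comp40743_c0_seq2 had 25.7, 18.7 and 17.7. The pectate lyases thus lay on opposite sides of 0, at -0.57 and 0.46.

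Genes of hormone signalling and metabolism had 6 of 14 listed transcripts measured, with a median of -0.23 and 0 past 2-fold. Of the 6, 4 were below 0. Transport inhibitor response 1, the F-box auxin receptor, had 16.7 RPKM in A1, 20.6 in A3 and 24.8 in A9 (comp44609_c0_seq3, ratio -0.31 with a counting interval from -0.44 to -0.17). The ratio of its component was -0.15. The auxin signalling transcript with the miR393 site printed above, comp45893_c0_seq5, had 19.7, 23.2 and 27.8 RPKM (ratio -0.24). Zeaxanthin epoxidase, which acts in the carotenoid pathway that leads to abscisic acid, had 30.0, 35.0 and 48.3 RPKM (comp40321_c0_seq1), and a protein phosphatase 2C, a family with repressors of abscisic acid signalling, 5.94, 7.22 and 8.30 RPKM (comp43453_c0_seq1). In all 4 the dwarf was lowest and the wild type highest, but none differed 2-fold between any pair of lines. On the other side of 0, an EREBP-like factor, of the family that binds ethylene response elements, had 30.4, 26.4 and 27.5 RPKM (comp37594_c0_seq3, ratio 0.21, ratio of the component 0.09). Brassinosteroid resistant 1/2, also above 0, had 40.2, 39.6 and 48.6 RPKM (comp40273_c0_seq2, ratio 0.02). All 6 are predicted miRNA targets. The discussion of the study gives the hormone genes SAUR, GH3, NCED and PP2C as changed in opposite directions in the mutants against the wild type. Its results, however, place SAUR among the most lowered genes in both mutants. The transcripts behind these reports could not be looked up here, and whether the PP2C is the one above is not known.

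Transcription factors had 8 of 22 listed transcripts measured, 4 on either side of 0, with a median of 0.03 and 0 past 2-fold. The lowest was a homeobox-leucine zipper protein at 11.04 RPKM in A1, 13.4 in A3 and 13.5 in A9 (comp45076_c0_seq1), a family whose class III members pattern the meristem and the vascular tissue and carry miR166 sites. The highest was comp32995_c0_seq2, known only by its ontology terms and predicted for miR172, at 6.86, 4.48 and 4.16 RPKM (ratio 0.60, counting interval 0.08 to 1.16, ratio of the component 0.34). An AP2-like factor had 6.76, 6.79 and 5.29 RPKM (comp37715_c0_seq2) and a myb protein 6.99, 6.60 and 9.01 (comp34546_c0_seq3), with ratios of -0.01 and 0.08. The component of the AP2-like factor had a ratio of -0.32. The median of the list was -0.12 over 18 transcripts at a minimum of 1 RPKM.

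Protein kinases had 6 of 29 listed transcripts measured, with a median of 0.20 and 0 past 2-fold. At a minimum of 1 RPKM the median was -0.01 over 25 transcripts, and over 16 component sums it was 0.05. The 6 ran from comp23622_c0_seq1 at 9.43 RPKM in A1, 12.2 in A3 and 11.4 in A9 (ratio -0.37) to comp38925_c0_seq1, a MAP kinase kinase kinase by its ontology terms, at 8.51, 6.10 and 9.23 (ratio 0.47). Cell cycle and DNA genes had 11 of 20 measured, with a median of -0.05, and only TFIIH subunit 4 passed 2-fold (lower in A1). Cyclin A, which drives the cell through S phase and towards mitosis, was the highest of them in A1 relative to A3, at 6.83 RPKM in A1 and 5.31 in A3 (comp43398_c0_seq1, ratio 0.36). The other 10 of these transcripts differed by less than 2-fold.

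The translation and ribosome list also took in the Argonaute transcripts described below, by their name as an initiation factor. It had 13 of 17 listed transcripts measured, with a median of 0.00 and only L8e past 2-fold. The others lay between -0.19 for ribosomal protein L15, at 123 RPKM in A1, 140 in A3 and 144 in A9 (comp35777_c0_seq1), and 0.30 for SNU13, a component of the spliceosome and of ribosomal RNA processing particles, at 43.2, 35.1 and 26.7 RPKM (comp31467_c0_seq1). The low value of L8e was thus not shared by the other ribosomal proteins listed, L15, L9e, S17 and S2e, whose ratios lay between -0.19 and 0.22.

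Genes of the plastid and photosynthesis had 10 of 12 listed transcripts measured, with a median of -0.21, 8 below 0 and 0 past 2-fold. Over all 31507 transcripts 50.9% were below 0. The lowest was comp38083_c0_seq1 at 10.7 RPKM in A1, 13.2 in A3 and 19.4 in A9 (ratio -0.30), and the highest comp34698_c0_seq1 at 7.58, 7.02 and 8.24 (ratio 0.11). Genes of oxidation and reduction, some of which are also on the plastid list, had 15 of 27 measured, with a median of -0.14 and 11 below 0. Hydroxymethylglutaryl-CoA reductase, the enzyme that commits carbon to the mevalonate pathway of sterols and other isoprenoids, was the lowest of these at 12.3 RPKM in A1, 16.6 in A3 and 12.8 in A9 (comp46108_c0_seq2, ratio -0.44, ratio of the component -0.14). All of these differences were under 2-fold.

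The remaining lists were small. Microtubule and motor genes had 3 of 6 measured, all below 0, from beta-tubulin at 32.6 RPKM in A1, 40.5 in A3 and 53.2 in A9 (comp34310_c0_seq2, ratio -0.31, ratio of the component -0.10) to a transitional endoplasmic reticulum ATPase at 36.6, 38.6 and 41.9 (comp46596_c0_seq13, ratio -0.08). Defence and cell death genes had 2 of 9 measured, a chitinase by its ontology terms at 188, 194 and 249 RPKM (comp38613_c0_seq1) and comp43060_c0_seq1 at 6.33, 3.92 and 3.45 RPKM (ratio 0.68). Of 7 listed retroelement and DNA integration transcripts, 0 reached the minimum.

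**Figure D5:**
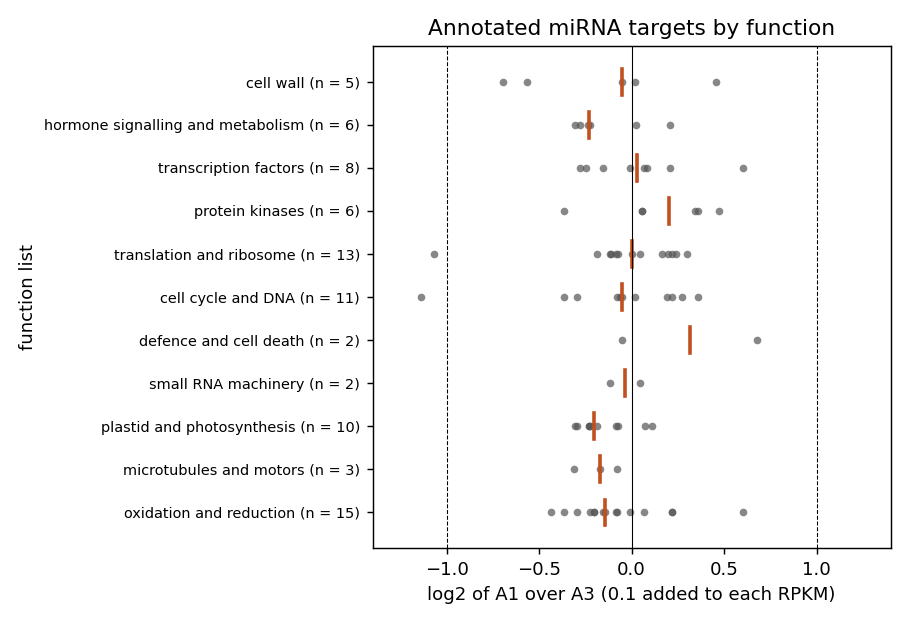
Each point is 1 annotated miRNA target, with the log2 ratio of A1 over A3 (0.1 added to each RPKM) on the horizontal axis and its function list, with the number measured, on the vertical axis. Orange bars mark list medians and dashed lines 2-fold; L8e at -1.07 and TFIIH subunit 4 at -1.14 are the only points past a dashed line.

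The small RNA machinery had 2 of 4 listed transcripts measured, and 0 passed 2-fold. Eukaryotic translation initiation factor 2C is an older name of Argonaute, the protein that holds the miRNA and cuts the target. The transcript with the miR168 site had 64.6 RPKM in A1, 70.1 in A3 and 75.2 in A9 (comp46753_c1_seq2, ratio -0.12), and that with the miR403 site 14.0, 13.6 and 14.8 RPKM (comp45738_c0_seq1, ratio 0.04). The study called cleavage with a degradome (reads of cut RNA ends) that is not among the samples of this series. Of 10 targets listed as cleaved, 0 differed 2-fold between the mutants, beside 2.80% of all 31507 transcripts. Their ratios lay between -0.44 and 0.66 around a median of 0.06. The lowest was comp36273_c0_seq2, predicted for miR396, at 26.2, 35.7 and 29.7 RPKM. The highest was comp26942_c0_seq2, with the miR156 site printed above, at 9.32 RPKM in A1, 5.85 in A3 and 6.25 in A9. Its ratio of 0.66 was past the 95th percentile of all transcripts (0.64), and that of its component was 0.40. Another transcript with a miR156 site, comp38725_c0_seq2, had 10.6, 9.41 and 9.49 RPKM (ratio 0.17).

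The other 4 of the 10 were also near 0. The transcript comp40057_c0_seq1, listed for miR827, had 15.7 RPKM in A1, 14.5 in A3 against 19.9 in A9, and comp40072_c0_seq1, listed for miR396, had 28.4, 25.5 and 36.0. A heat shock 70 kDa protein, listed for miR171, had 29.8, 33.2 and 32.0 RPKM (comp45246_c0_seq1), and the myb protein was given above. The targets of miR396 thus lay on both sides of 0.

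By miRNA family, 18 of 28 lists of predicted targets had 3 or more measured members, and their medians lay between -0.22 and 0.14. The lowest median belonged to miR164 (4 members) and the highest to miR530 (3 members), which turned to -0.08 over 6 members at a minimum of 1 RPKM and to -0.09 over component sums. Of the targets of miR171, 13 of 16 were below 0, with a median of -0.10 and 0 past 2-fold. Below 0 were also 55.1% of all 198 targets and 50.9% of all 31507 transcripts. The lists of miR159, with 1 of 13 past 2-fold, miR396, with 1 of 13, and miR827, with 1 of 3, held the members past 2-fold among these 18, and that of miR2950 consisted of L8e alone. The lists of miR166 (12 members, median -0.08), miR172 (10, median 0.00), miR156 (12, median -0.01) and miR482 (13, median -0.02) had 0 members past 2-fold. Many targets are on several of these lists, and transcripts of a component can share reads, so the lists are not independent of each other.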

How the data were processed

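Reads of the 3 mRNA libraries were cleaned and jointly assembled (Trinity) by the authors, whose deposited values are RPKM per transcript, 1 file per line, to 2 decimals. The read mapper and the counting of reads shared by transcripts are not given in the sources used here. Small RNA data were not used here. The files were joined by transcript name, and component sums were taken over names without the final sequence number. Functions, ontology terms, miRNA names and sites came from the study's additional files. With 1 library per line no test was run, and differences were called at 2-fold or more. The transcripts named were the 10 highest and 10 lowest ratios, annotated transcripts past 2-fold, the highest and lowest of each list, targets listed as cleaved, the 10 highest levels, 5 components per direction and 3 neighbours on each side of the minimum, with others added after the values were seen. The members and lists were chosen with earlier results of these data known. Multiples standing for reads were inferred from the listed lengths, with constants of 72.2 for A1 and 74.0 for A3 at which 86.7% of 83 and 89.7% of 78 low values were whole within 0.1. Whether a multiple is 1 read or a pair is not known. Alternatives changed the value added, the minimum, the scaling and the threshold. Scripts were tested on simulated data and run with Python 3.11.15, pandas 2.3.3 on numpy 2.4.6, matplotlib 3.10.9 and scipy 1.17.1.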

Additional observations from a re-analysis of the deposited data

How the results depend on the processing

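No paired analysis was possible because each line had a single library. The counts of higher and lower transcripts in A1 (620 and 261) and components (393 and 209) depended mainly on the minimum. At a minimum of 1 RPKM they were 5417 and 4631 transcripts and 3729 and 3506 components. At 10 RPKM they were 240 and 53 transcripts and 212 and 62 components. Without a minimum they were 13777 and 12622 of 156846 transcripts and 10809 and 10408 of 70875 components. The share of higher ones among differing transcripts (70.4%) was 53.9%, 81.9% and 52.2% under these. At a log2 ratio of at least 2, 56 and 50 transcripts and 45 and 29 components were left. The share of higher ones was then 52.8% for transcripts and 60.8% for components. With 1 added to every RPKM, 166 transcripts and 131 components were lower in A1, while the counts of higher ones stayed within 1.5 times. Among differing transcripts, A9 was between the mutants for 341, above both for 70 and below both for 470. These became 67, 9 and 30 at a log2 ratio of at least 2, and 87, 12 and 194 at a minimum of 10 RPKM. Asking for a log2 difference of 0.25 from both mutants left 33 above both. Of lists with 3 or more members, 0 had a median of 0.25 or more in size, against 2 at a minimum of 1 RPKM (defence, retroelements) and 2 with component sums (defence, miR160 targets). List medians under 0.25 also moved, and at a minimum of 1 RPKM those of protein kinases (0.20), transcription factors (0.03), cell cycle genes (-0.05), translation genes (0.00) and the targets of miR160 (0.06), miR482 (-0.02) and miR530 (0.14) changed sign, to -0.01, -0.12, 0.02, -0.01, -0.10, 0.04 and -0.08. Scaling A1 by the median or upper quartiles moved no count by 1.5 times. Of 70 named transcripts, 2 fell under 2-fold with 1 added and 3 with component sums (comp39750_c0_seq24, comp42267_c0_seq1, comp45271_c0_seq8), and 0 changed direction. Half-multiples as reads would narrow the median counting interval to 0.16 on either side. Multiples that are single reads of pairs would not be independent and would widen the intervals, which was not computed.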
